A study of Mus musculus with 8 samples.

Results

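Receptors and signalling genes that drive maturation of medullary thymic epithelial cells are described here: the receptors Tnfrsf11a (RANK), Cd40 and Ltbr, the decoy receptor Tnfrsf11b (osteoprotegerin), the kinase Map3k14 (NIK), the NF-kB subunits Relb and Nfkb2, and the adaptors Traf2, Traf3 and Traf6. They were chosen by name, as 10 of the 27179 gene identifiers in the count files, and all 10 were among the 18163 genes that passed the filter on low counts.

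Polyadenylated RNA of thymic epithelial cells from C57BL/6 mice was sequenced in 8 libraries. They were 1 library of Mcl1 knockout (KO) medullary cells (mTECs), 2 of wild-type (WT) mTECs, 1 of KO cortical cells (cTECs) and 4 of WT cTECs. Mcl1 encodes an anti-apoptotic protein of the BCL-2 family, and the labels name no treatment, age, Cre driver or deleted exon. They also do not say whether libraries came from separate or pooled animals, and a p-value here therefore measures spread between samples that may be technical. With 1 library in each KO group, that spread comes from the WT libraries.

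Thymic epithelial cells of the cortex and the medulla present antigens on which T cells are selected. RANK, CD40 and the lymphotoxin beta receptor receive signals from lymphoid cells, and in resting cells TRAF2 and TRAF3 keep NIK low. On signalling, NIK accumulates and leads to processing of the NFKB2 precursor p100 to p52, which acts with RELB in the non-canonical pathway, while TRAF6 couples RANK and CD40 to the canonical pathway. Loss of RANK signalling, NIK or RELB in mice is known to deplete mature, Aire-expressing mTECs.

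Total counts per library ran between 11516780 and 19171953. Levels are given as CPM, counts scaled to the library total with TMM factors, and counting intervals cover counting error only. Mcl1 had 8.23 CPM in the KO cTEC library (128 counts) and 228 to 302 CPM in WT cTECs, and 78.7 CPM in the KO mTEC library against 113 and 204 CPM in WT mTECs. Summed markers of cTECs reached 1758 CPM in KO mTECs, 1782 and 1395 CPM in WT mTECs, 8747 CPM in KO cTECs and 4282 to 9019 CPM in WT cTECs. The WT cTEC libraries also held mature mTEC markers at a summed 343 to 545 CPM, against 1136 and 1367 CPM in WT mTECs. Of these 6 markers 3 were called higher in WT mTECs and none lower. Spib alone had 162.2, 367.3, 218.9 and 258.2 CPM in WT cTECs, against 208.4 and 207.7 CPM in WT mTECs (log2 fold change -0.27 ± 0.29, edgeR adjusted p = 0.509). The KO cTEC library had a summed 2.19 CPM with 2 of the 6 markers at 0, Aire among them. Other medullary markers were higher in WT cTECs: summed tuft cell markers were 549 and 623 CPM in WT mTECs and 825 to 1458 CPM in WT cTECs (4 of 6 called lower in mTECs), and summed immature or junctional mTEC markers were 1839 and 1658 CPM in WT mTECs and 3070 to 4062 CPM in WT cTECs (6 of 6 called lower in mTECs). In such bulk samples, fewer cells of a type and less RNA per cell cannot be told apart.

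The promoters of 4 of the genes are shown because Tnfrsf11a, Nfkb2 and Ltbr changed in KO cTECs and Nfkb2 and Traf3 carry kappa B consensus matches. Windows of 300 bases, 250 before and 50 from the listed start, came from RefSeq on GRCm38.p6 and are written 5′ to 3′ on the gene's strand, with letters matching the kappa B consensus on either strand in capitals. The Tnfrsf11a window was chr1:105780473-105780772 (plus strand), the Nfkb2 window chr19:46304487-46304786 (plus), the Ltbr window chr6:125313836-125314135 (minus) and the Traf3 window chr12:111166120-111166419 (plus).
Tnfrsf11a: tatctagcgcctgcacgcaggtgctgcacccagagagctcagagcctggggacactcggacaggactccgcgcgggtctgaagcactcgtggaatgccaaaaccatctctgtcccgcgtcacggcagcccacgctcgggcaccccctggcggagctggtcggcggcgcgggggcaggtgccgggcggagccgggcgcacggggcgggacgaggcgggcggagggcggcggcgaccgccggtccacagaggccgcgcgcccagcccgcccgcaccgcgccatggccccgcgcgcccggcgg
Nfkb2: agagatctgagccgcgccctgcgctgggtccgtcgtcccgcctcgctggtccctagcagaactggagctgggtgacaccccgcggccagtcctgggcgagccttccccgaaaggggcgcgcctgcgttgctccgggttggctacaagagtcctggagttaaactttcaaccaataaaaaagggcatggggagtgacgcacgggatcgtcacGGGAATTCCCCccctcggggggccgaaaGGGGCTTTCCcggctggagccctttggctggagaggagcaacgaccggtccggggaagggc
Ltbr: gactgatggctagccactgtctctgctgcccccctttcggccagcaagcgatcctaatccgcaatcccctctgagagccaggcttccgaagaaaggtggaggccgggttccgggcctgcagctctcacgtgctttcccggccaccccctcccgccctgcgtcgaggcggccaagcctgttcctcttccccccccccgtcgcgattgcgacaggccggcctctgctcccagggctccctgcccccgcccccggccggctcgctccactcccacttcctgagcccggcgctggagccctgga
Traf3: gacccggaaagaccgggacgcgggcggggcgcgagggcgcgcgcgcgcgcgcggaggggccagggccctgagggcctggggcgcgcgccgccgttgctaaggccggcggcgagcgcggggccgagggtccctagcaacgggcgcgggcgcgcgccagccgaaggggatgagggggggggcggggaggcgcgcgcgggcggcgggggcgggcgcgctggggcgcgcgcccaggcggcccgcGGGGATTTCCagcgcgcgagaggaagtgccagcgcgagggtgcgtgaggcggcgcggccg
A window was given for 7 of the 10 genes (9 windows), and 2 genes, Nfkb2 and Traf3, had a match in 4 windows. Further Nfkb2 windows, not printed here, were chr19:46305445-46305744 and chr19:46305680-46305979. They overlap and hold the same GGGACTTTCC match, so the 4 windows count this site more than once. Of all 32851 windows in the table, 1480 (4.51%) had a match, as did 1388 of 27025 genes (5.14%). These shares take no account of how many windows a gene has. In the printed Nfkb2 window, overlapping matches lay at positions -39 to -30 and -38 to -29 and another at -11 to -2. Positions are counted from 0 at the listed start, and the first of these matches reads the same on both strands. The Traf3 match lay at -10 to -1. No match in a window says only that these letters are not there.

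The plot of levels by library shows each of the 10 genes in the 4 groups.

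**Figure D1:**
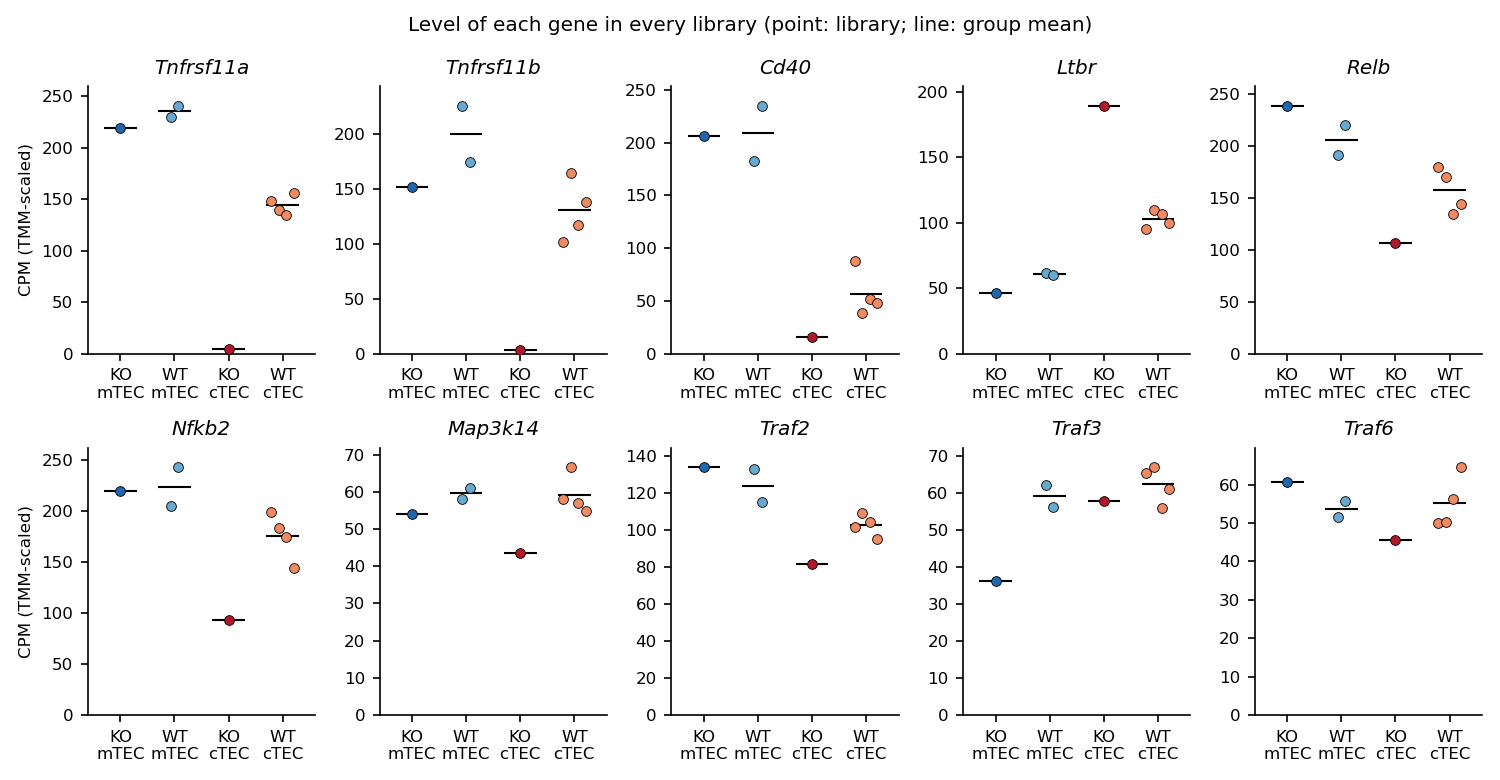
Level of each of the 10 genes in TMM-scaled CPM (linear axes from 0) in KO mTEC, WT mTEC, KO cTEC and WT cTEC libraries; each point is a library and each line a group mean. Tnfrsf11a and Tnfrsf11b were at 4.18 and 2.89 CPM in the KO cTEC library, under every other library, and Ltbr was at 189 CPM there, above every other library.

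WT mTECs were first set against WT cTECs, to see how the pathway differs between the populations when Mcl1 is intact. RANK and CD40 were higher in mTECs and the lymphotoxin beta receptor was lower, while the 7 other genes did not pass the test. Among the 10 genes 2 were higher, against 13.2% of all genes tested, and 1 was lower, against 13.9%. The median log2 fold change was 0.31 over the 10 genes and 0.06 over all genes. The part of the mature, junctional and tuft cell markers given above in these differences was not tested.

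Tnfrsf11a (Entrez 21934, chr1:105780673-105849444, mm10), the receptor of RANKL, had 229.6 and 240.5 CPM in WT mTECs, against 148.2, 139.7, 134.2 and 156.3 CPM in WT cTECs. Both mTEC libraries were above every cTEC library, and the means differed 1.63 times. Its log2 fold change was 0.70 ± 0.137 (SE; edgeR adjusted p = 0.00946), and the call was lost without WT mTEC 1 (adjusted p = 0.0661) or WT mTEC 2 (adjusted p = 0.0978). Tnfrsf11b (Entrez 18383, chr15:54250619-54278484), the secreted decoy that binds RANKL, had 226.0 and 174.6 CPM in WT mTECs, against 102.2, 165.0, 117.3 and 138.2 CPM in WT cTECs. The groups did not overlap, but the spread within both was wide. The log2 fold change of 0.62 ± 0.213 did not pass (edgeR adjusted p = 0.0631), and it passed with DESeq2 (adjusted p = 0.0163), with limma-voom (adjusted p = 0.0422), without WT cTEC 2 (adjusted p = 0.0412) and with RLE size factors (adjusted p = 0.0474).

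Cd40 (Entrez 21939, chr2:165055614-165071654), the receptor of CD40L, showed the greatest difference of the 10. It had 182.9 and 235.0 CPM in WT mTECs, against 87.6, 38.8, 51.6 and 48.4 CPM in WT cTECs. WT cTEC 1 was the highest of the cTEC libraries and still under both mTEC libraries. The means differed 3.69 times, and the log2 fold change was 1.89 ± 0.294 (edgeR adjusted p = 0.00437). The call was lost without WT mTEC 2 (adjusted p = 0.0546), and with WT cTEC 1 as the only WT cTEC library the log2 fold change was 1.21. CD40 is also a surface protein of B cells and dendritic cells. Summed B cell markers were 52.6 and 64.9 CPM in WT mTECs and 11.7 to 32.0 CPM in WT cTECs, and summed dendritic cell and macrophage markers were 799 and 1065 CPM in WT mTECs and 155 to 252 CPM in WT cTECs. Most of each sum was 1 gene, Cd79b (35.8 and 42.1 CPM in WT mTECs) and Lyz2 (741 and 995 CPM). Of the 6 markers tested in each list, 2 and 4 were called higher in WT mTECs and none lower. The part of these cell types in the Cd40 difference was not tested.

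Ltbr (Entrez 17000, chr6:125306571-125313885), the receptor of membrane lymphotoxin, ran the other way. It had 61.2 and 60.2 CPM in WT mTECs, against 95.3, 109.5, 106.8 and 99.99 CPM in WT cTECs. The mTEC libraries were nearly equal and lay under all 4 cTEC libraries. The log2 fold change was -0.76 ± 0.146 (edgeR adjusted p = 0.00874), and the call was lost without WT mTEC 1 (adjusted p = 0.0777) or WT mTEC 2 (adjusted p = 0.1).

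The subunits of the non-canonical pathway were at high levels in both populations. Relb (Entrez 19698, chr7:19606217-19629438) had 190.9 and 219.5 CPM in WT mTECs, against 179.8, 170.1, 134.3 and 143.6 CPM in WT cTECs. Nfkb2 (Entrez 18034, chr19:46300994-46312400), the precursor of p52, had 204.8 and 242.5 CPM in WT mTECs, against 199.1, 183.2, 174.7 and 143.6 CPM in WT cTECs. In both genes the mTEC libraries lay above all cTEC libraries by a narrow margin. The log2 fold change of Relb was 0.39 ± 0.169 (edgeR adjusted p = 0.122) and that of Nfkb2 0.35 ± 0.171 (edgeR adjusted p = 0.158), and neither passed.

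Map3k14 (Entrez 53859, chr11:103219764-103267401), the kinase NIK that phosphorylates p100 by way of IKKα, had 58.0 and 61.2 CPM in WT mTECs, against 58.1, 66.6, 57.0 and 54.7 CPM in WT cTECs. The ranges overlapped, with a log2 fold change of 0.01 ± 0.153 (edgeR adjusted p = 0.962). Traf2 (Entrez 22030, chr2:25517982-25546940) had 132.9 and 115.1 CPM in WT mTECs, against 101.5, 109.2, 104.5 and 95.1 CPM in WT cTECs, with the mTEC libraries higher and no call (log2 fold change 0.27 ± 0.144, edgeR adjusted p = 0.188). Traf3 (Entrez 22031, chr12:111166321-111267155) had 62.0 and 56.1 CPM in WT mTECs, against 65.3, 66.9, 55.9 and 61.0 CPM in WT cTECs. Traf6 (Entrez 22034, chr2:101678420-101701668) had 51.4 and 55.7 CPM in WT mTECs, against 50.01, 50.2, 56.2 and 64.5 CPM in WT cTECs. Traf3 and Traf6 overlapped between the groups, with log2 fold changes of -0.08 ± 0.153 and -0.04 ± 0.169 (edgeR adjusted p = 0.74 and 0.865). In GENCODE M21, Map3k14, Nfkb2, Traf2 and Traf3 overlap other annotated genes (Traf3 over 18122 bases with 4930595D18Rik). The library kit does not mark strand, so reads of overlapping exons cannot be told apart.

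KO cTECs set against WT cTECs addressed the pathway in the cortical population after loss of Mcl1. RANK and its decoy were nearly gone from the KO cTEC library, CD40 and Nfkb2 were lower, and the lymphotoxin beta receptor was higher. Of the 10 genes 4 were lower, against 12.4% of all genes tested, and 1 was higher, against 5.1%. The median log2 fold change was -0.50 over the 10 genes and -0.14 over all genes. The comparison shares its WT cTEC libraries with the one between the WT populations.

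Tnfrsf11a had 4.18 CPM in KO cTECs (65 counts, 95% Poisson interval 3.22 to 5.32 CPM), against 148.2, 139.7, 134.2 and 156.3 CPM in WT cTECs. The KO library was at 2.89% of the WT mean of 144.6 ± 9.67 CPM (SD, n = 4). The log2 fold change was -5.11 ± 0.266 (edgeR adjusted p = 7.04e-05). Tnfrsf11b had 2.89 CPM in KO cTECs (45 counts, interval 2.11 to 3.87 CPM), against 102.2, 165.0, 117.3 and 138.2 CPM in WT cTECs. It was at 2.21% of the WT mean of 130.7 ± 27.2 CPM (SD, n = 4), with a log2 fold change of -5.49 ± 0.426 (edgeR adjusted p = 0.000187). Receptor and decoy thus lay far under all 4 WT libraries, and both calls held under all 12 alternatives tried.

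Cd40 had 15.2 CPM in KO cTECs (237 counts, interval 13.4 to 17.3 CPM), against 87.6, 38.8, 51.6 and 48.4 CPM in WT cTECs. The KO library lay under every WT library, at 26.9% of the WT mean of 56.6 ± 21.4 CPM (SD, n = 4). The log2 fold change was -1.89 ± 0.461 (edgeR adjusted p = 0.0252), and with limma-voom it did not pass (adjusted p = 0.062). Against WT cTEC 1 alone it was -2.62. Ltbr had 189.1 CPM in KO cTECs (2942 counts, interval 182 to 196 CPM), against 95.3, 109.5, 106.8 and 99.99 CPM in WT cTECs. It stood above every WT library at 1.84 times the WT mean of 102.9 ± 6.47 CPM (SD, n = 4), with a log2 fold change of 0.88 ± 0.172 (edgeR adjusted p = 0.0102). This call held under all 12 alternatives.

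Nfkb2 had 93.5 CPM in KO cTECs, against 199.1, 183.2, 174.7 and 143.6 CPM in WT cTECs. It lay under all WT libraries, at 53.3% of the WT mean of 175.2 ± 23.3 CPM (SD, n = 4). The log2 fold change was -0.91 ± 0.24 (edgeR adjusted p = 0.0343), and the call was lost without WT mTEC 1, WT mTEC 2, WT cTEC 2 or WT cTEC 3 (adjusted p = 0.0608, 0.0591, 0.0649 and 0.0695). Relb had 106.2 CPM in KO cTECs, against 179.8, 170.1, 134.3 and 143.6 CPM in WT cTECs. It also lay under all WT libraries but did not pass (log2 fold change -0.56 ± 0.231, edgeR adjusted p = 0.133).

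The kinase and the adaptors differed less. Map3k14 had 43.5 CPM in KO cTECs and 59.1 ± 5.18 CPM in WT cTECs (SD, n = 4), with a log2 fold change of -0.44 ± 0.205 (edgeR adjusted p = 0.176). Traf2 had 81.6 CPM in KO cTECs and 102.6 ± 5.91 CPM in WT cTECs (SD, n = 4), with a log2 fold change of -0.33 ± 0.193 (edgeR adjusted p = 0.277). Traf6 had 45.7 CPM in KO cTECs and 55.2 ± 6.81 CPM in WT cTECs (SD, n = 4), with a log2 fold change of -0.27 ± 0.222 (edgeR adjusted p = 0.427). None of these 3 genes passed the test. Traf3 had 57.7 CPM in KO cTECs, inside the WT range of 55.9 to 66.9 CPM (log2 fold change -0.11 ± 0.199, edgeR adjusted p = 0.736).

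Several marker lists moved with these changes. Summed mature mTEC markers were 2.19 CPM in KO cTECs and 343 to 545 CPM in WT cTECs, with 4 of 6 called lower. Summed tuft cell markers were 38.3 CPM in KO cTECs (2 of 6 at 0) and 825 to 1458 CPM in WT cTECs, with 6 of 6 lower. Summed B cell markers were 0.964 CPM in KO cTECs (3 of 7 at 0) and 11.7 to 32.0 CPM in WT cTECs (0 to 3 of 7 at 0). Summed dendritic cell and macrophage markers were 12.0 CPM in KO cTECs (3 of 9 at 0) and 155 to 252 CPM in WT cTECs (0 to 4 of 9 at 0). Most of the WT cTEC sums was Cd79b (9.34 to 22.9 CPM) and Lyz2 (121 to 223 CPM). Of the 6 markers tested in each list, 1 and 4 were called lower and none higher. Summed immature or junctional mTEC markers were 2563 CPM in KO cTECs and 3070 to 4062 CPM in WT cTECs. Of these 6, 1 was called lower (Ccl21a, 1.54 against 657 to 964 CPM) and 1 higher (Pdpn). Summed thymocyte markers were 34.2 and 45.4 to 121 CPM, with 1 of 9 called lower. Summed endothelial markers were 17.5 and 23.4 to 40.4 CPM, with 1 of 5 called lower (Tek, 3.985 against 18.1 to 35.85 CPM). Without a call, Cdh5, Kdr and Emcn lay above every WT cTEC library, and the median log2 fold change of the endothelial markers was 1.38. Summed pan-TEC markers were 8178 CPM in KO cTECs and 4248 to 5081 CPM in WT cTECs, with 3 of 5 called higher and 1 lower. Summed cTEC markers were 8747 CPM in KO cTECs, inside the WT range of 4282 to 9019 CPM, with 3 of 8 called higher and none lower. Summed fibroblast markers were 777 CPM in KO cTECs and 599 to 855 CPM in WT cTECs, but most of each sum was Dcn (573 CPM and 557 to 813 CPM). Of the 6 fibroblast markers 2, Col1a1 and Col1a2, were called higher and none lower. Col1a1 had 81.6 CPM in KO cTECs and 5.92 to 15.75 CPM in WT cTECs. The part of these cell types in the changes of Tnfrsf11a, Tnfrsf11b, Cd40, Nfkb2 and Ltbr was not tested.

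**Figure D2:**
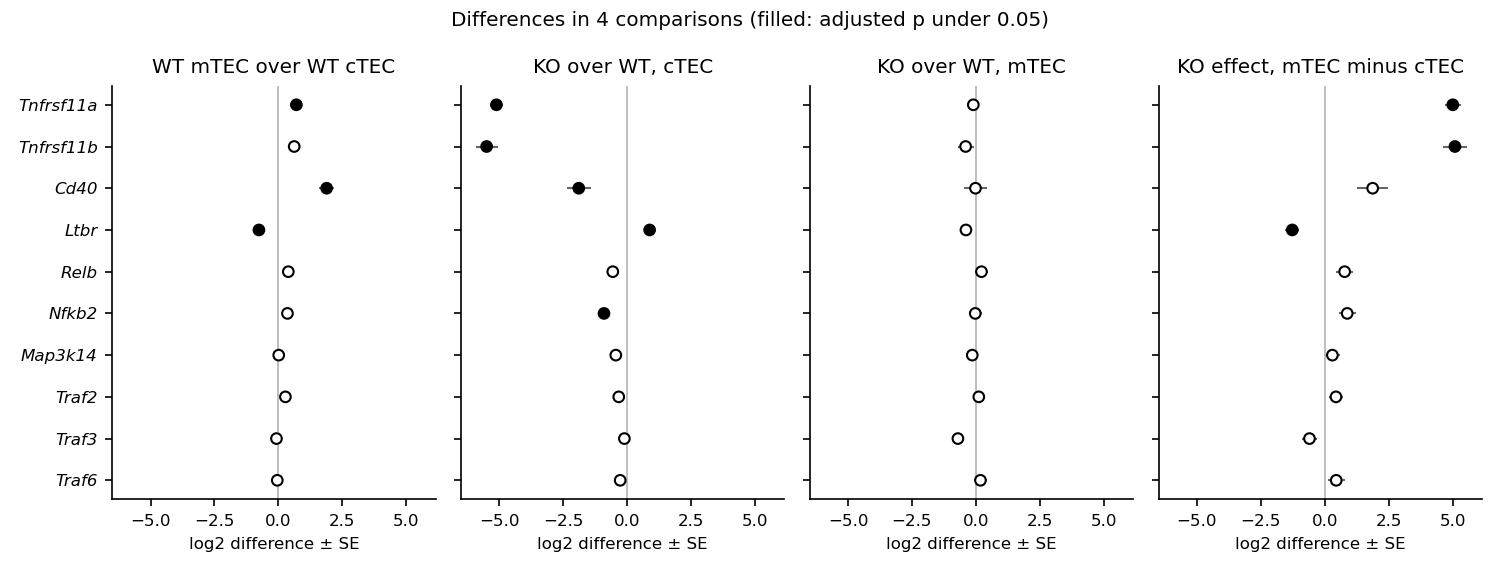
Log2 difference ± SE (x axes) of the 10 genes (rows) in 4 comparisons: WT mTEC over WT cTEC, KO over WT in cTECs, KO over WT in mTECs, and the KO effect in mTECs minus that in cTECs. Filled points passed an edgeR adjusted p of 0.05. Tnfrsf11a and Tnfrsf11b lie at -5.11 and -5.49 in cTECs, at -0.10 and -0.40 in mTECs, and differ by 5.01 and 5.09.

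The library labelled KO mTEC was then set against WT mTECs. It kept Mcl1 at 78.7 CPM (871 counts), under the 113 and 204 CPM of WT mTECs, with a log2 fold change of -1.01 ± 0.357 that did not pass (edgeR adjusted p = 0.538). None of the 10 genes passed the test with edgeR (0% of all genes tested passed in either direction, with 1502 genes at an unadjusted p under 0.05). None of the 10 passed either with DESeq2 (141 genes called), limma-voom (0), the mTEC libraries alone (708) or WT cTEC 1 as the only WT cTEC library (734). The median log2 fold change was -0.06 over the 10 genes and -0.03 over all genes. Tnfrsf11a had 218.9 CPM in KO mTECs, against 229.6 and 240.5 CPM in WT mTECs, which is 93.1% of the WT mean (log2 fold change -0.10 ± 0.199). Tnfrsf11b had 151.5 CPM in KO mTECs, against 226.0 and 174.6 CPM in WT mTECs (log2 fold change -0.40 ± 0.313). Both lay just under the WT libraries. Cd40 had 206.4 CPM in KO mTECs, between the 182.9 and 235.0 CPM of WT mTECs (log2 fold change -0.02 ± 0.431), and Nfkb2 had 219.6 CPM, between 204.8 and 242.5 CPM (log2 fold change -0.03 ± 0.246).

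Ltbr had 46.3 CPM in KO mTECs, against 61.2 and 60.2 CPM in WT mTECs (log2 fold change -0.39 ± 0.205), the opposite side from its position in cTECs. Traf3, which with TRAF2 holds NIK down, had 36.2 CPM in KO mTECs (401 counts, interval 32.8 to 40.0 CPM), against 62.0 and 56.1 CPM in WT mTECs. This was 61.4% of the WT mean and lower than any other library, with a log2 fold change of -0.70 ± 0.225 that did not pass (edgeR adjusted p = 0.483, unadjusted p = 0.0133). Its adjusted p was 0.0847 with the mTEC libraries alone and 0.0844 with WT cTEC 1 as the only WT cTEC library, the lowest of the 12 alternatives, and 1 at the highest. Relb had 238.4 CPM in KO mTECs, against 190.9 and 219.5 CPM in WT mTECs (log2 fold change 0.22 ± 0.241). Map3k14, Traf2 and Traf6 had log2 fold changes of -0.14 ± 0.219, 0.11 ± 0.205 and 0.18 ± 0.237. Summed fibroblast markers were 881 CPM in KO mTECs and 163 and 138 CPM in WT mTECs, and their part in these values was not tested.

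The KO effects were then set against each other, as the effect in mTECs minus that in cTECs. Tnfrsf11a and Tnfrsf11b were among the genes whose loss differed between populations, and Ltbr differed in the other direction. Of the 10 genes 2 had a higher KO effect in mTECs, against 6.16% of all genes tested, and 1 had a lower one, against 0.644%. The difference was 5.01 ± 0.307 log2 units for Tnfrsf11a (edgeR adjusted p = 0.00019) and 5.09 ± 0.483 for Tnfrsf11b (edgeR adjusted p = 0.000888), and both held under all 11 alternatives. It was -1.27 ± 0.272 for Ltbr (edgeR adjusted p = 0.0287), which did not pass with limma-voom (adjusted p = 0.105), without WT mTEC 1 (adjusted p = 0.105), without WT mTEC 2 (adjusted p = 0.0993) or without WT cTEC 3 (adjusted p = 0.0623). For Cd40 it was 1.88 ± 0.604 (edgeR adjusted p = 0.122), and it passed with DESeq2 (adjusted p = 0.0204) and without WT cTEC 1 (adjusted p = 0.0249). For Nfkb2 it was 0.88 ± 0.335 (adjusted p = 0.192 by edgeR) and for Relb 0.78 ± 0.33 (adjusted p = 0.243 by edgeR). Map3k14, Traf2, Traf3 and Traf6 had differences of 0.30, 0.44, -0.59 and 0.45 (edgeR adjusted p between 0.321 and 0.646). The median difference was 0.62 over the 10 genes and 0.09 over all genes.

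Divided by gene length, the 10 genes were also put in order within each group, on the scale of CPM per kilobase. In KO mTECs Cd40 was first at 116 and Traf3 last at 5.2 CPM per kilobase. In WT mTECs the order was Cd40 (117), Relb (93.1), Tnfrsf11b (71.1), Nfkb2 (67.9), Tnfrsf11a (46.8), Traf2 (41.4), Ltbr (29.0), Map3k14 (14.3), Traf6 (9.78) and Traf3 (8.47). Only Tnfrsf11b and Nfkb2, among neighbours in this order, overlapped between the WT mTEC libraries. In WT cTECs the order was Relb (71.2), Nfkb2 (53.2), Ltbr (49.2), Tnfrsf11b (46.4), Traf2 (34.2), Cd40 (31.7), Tnfrsf11a (28.8), Map3k14 (14.2), Traf6 (10.1) and Traf3 (8.93). In the 4 WT cTEC libraries Relb stayed above Nfkb2, Tnfrsf11a above Map3k14 and Map3k14 above Traf6 with no overlap, and the other neighbours overlapped. In KO cTECs Ltbr (90.4) was first and Tnfrsf11b (1.03) and Tnfrsf11a (0.832) were the last, after Traf3 (8.27). In all 4 groups Relb stayed above Nfkb2, and the single library of each KO group gives no spread for the order.

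Ratios between genes within a library were chosen after their values had been seen and carry no test. Relb and Nfkb2 together, per kilobase, were 2.76 times the canonical subunits Nfkb1 and Rela together in KO mTECs, 2.41 and 2.94 times in WT mTECs, 0.435 times in KO cTECs and 1.64, 1.13, 0.999 and 1.11 times in WT cTECs. The KO cTEC library had the lowest ratio. Nfkb1, the precursor of p50, had 479.4 CPM in KO cTECs against 158.9, 205.2, 227.1 and 198.7 CPM in WT cTECs, a log2 fold change of 1.28 ± 0.213 (edgeR adjusted p = 0.005). The ratio of Tnfrsf11a to Ltbr per kilobase was 1.97 in KO mTECs, 1.56 and 1.66 in WT mTECs, 0.0092 in KO cTECs and 0.524 to 0.651 in WT cTECs. The ratio of Tnfrsf11a to its decoy Tnfrsf11b was 0.811 in KO mTECs, 0.57 and 0.773 in WT mTECs, 0.811 in KO cTECs and 0.475 to 0.814 in WT cTECs. It stayed inside one range, in that receptor and decoy were low together in KO cTECs.

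**Figure D3:**
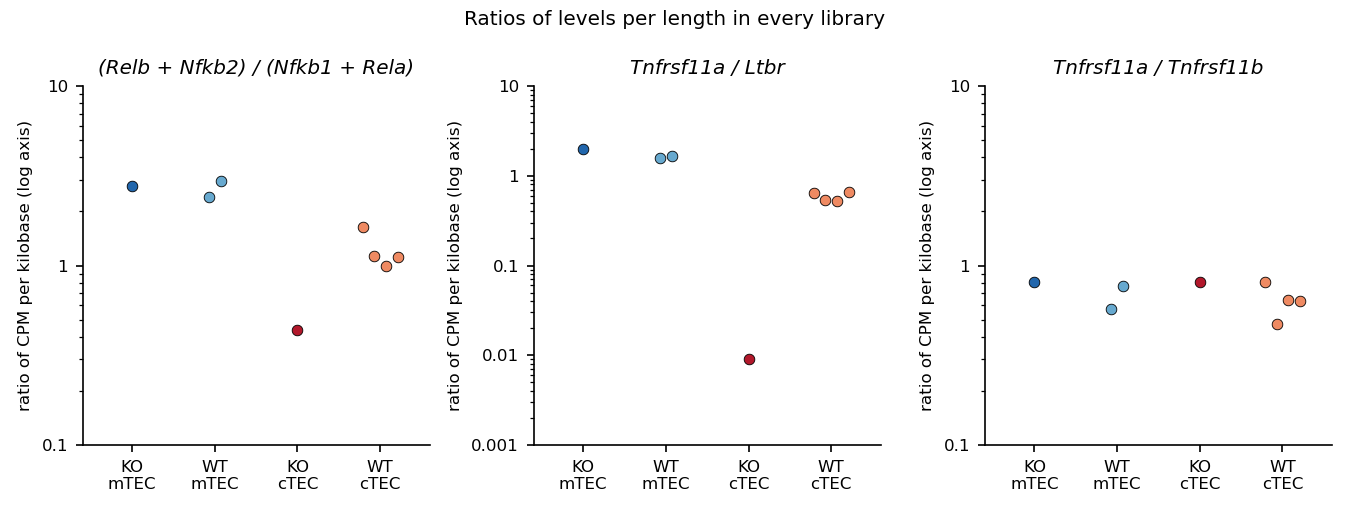
Ratio of levels per kilobase in each library (points; log axes), for Relb plus Nfkb2 over Nfkb1 plus Rela, Tnfrsf11a over Ltbr, and Tnfrsf11a over Tnfrsf11b, in KO mTEC, WT mTEC, KO cTEC and WT cTEC libraries. The KO cTEC library is lowest at 0.435 and 0.0092 in the first and second panels and lies at 0.811, inside the range of WT cTECs, in the last.

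Genes with a level pattern most like that of Tnfrsf11a were Serpinb1a (a protease inhibitor), Bdnf (a neurotrophin), Chil1 (a chitinase-like protein), Ifi211 and Cyp2g1, with Pearson's r of 0.999, 0.998, 0.998, 0.998 and 0.997 over the 8 libraries, among 11501 genes ranked. Serpinb1a had 916 CPM in KO mTECs, 1055 and 1090 CPM in WT mTECs, 15.7 CPM in KO cTECs and 574 to 650 CPM in WT cTECs. Of the other 9 genes, Tnfrsf11b was the most alike (r = 0.991, rank 70), followed by Nfkb2 (0.905), Map3k14 (0.815), Cd40 (0.789), Relb (0.783), Traf2 (0.768) and Traf6 (0.608). Traf3 (r = -0.113) and Ltbr (r = -0.802) did not follow it, and Cd40 and Ltbr ran opposite to each other (r = -0.967). These correlations describe 8 libraries that share groups, and the KO cTEC library is the extreme point of most of them.

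The rest of the pathway was read from 62 further genes grouped by role, 60 of them tested. In WT mTECs against WT cTECs 17 were higher and 10 lower, where 13.2% and 13.9% of all genes were, with a median log2 fold change of 0.46 against 0.06 over all genes. In KO against WT cTECs 2 were higher and 23 lower, where 5.1% and 12.4% of all genes were. The median was -1.04, or -1.01 with the 6 genes at 0 in the KO cTEC library at their bound, against -0.14 over all genes. In KO against WT mTECs none passed with edgeR, as for all genes. The difference of the KO effects was higher in mTECs for 14 and lower for 1, where 6.16% and 0.644% of all genes were, with medians of 1.29 and 0.09. The counts by role stand against these same shares.

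RNA of the ligands of RANK and CD40 was scarce in these libraries. Tnfsf11, which encodes RANKL, had 3.89 CPM in KO mTECs, 2.37 and 1.90 CPM in WT mTECs, 0.193 CPM in KO cTECs (3 counts) and 0 to 1.33 CPM in WT cTECs, and Cd40lg stayed at 0.423 CPM or less in every library. Ltb, lymphotoxin beta, had 0.964 CPM in KO cTECs against 7.99, 10.8, 9.12 and 8.78 CPM in WT cTECs (log2 fold change -3.24 ± 0.483, edgeR adjusted p = 0.003). In mTECs Ltb was higher than in cTECs of WT mice by 1.07 ± 0.271 (edgeR adjusted p = 0.0226). Of 7 ligands tested, 2 were higher in WT mTECs than in WT cTECs (Ltb and Tnf) and 1, Ltb, was lower in KO cTECs.

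Among 9 other receptors, KO cTECs had 4 lower and 1 higher. Tnfrsf9 (4-1BB) fell by 4.88 ± 0.563 log2 units (edgeR adjusted p = 0.000921). Tnfrsf8 (CD30) had no counts in KO cTECs and was at least 56.9-fold lower than the WT mean, against a floor of 3 counts in that library. Tnfrsf1a, the TNF receptor of most tissues, was higher by 0.84 ± 0.17 (edgeR adjusted p = 0.012), the same direction as Ltbr, and in WT mTECs it was lower than in WT cTECs by 1.02 ± 0.146 log2 units (edgeR adjusted p = 0.00324). In WT mTECs 2 other receptors, Tnfrsf9 and Tnfrsf4, were higher and 3 lower.

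Adaptors and inhibitors were mixed in WT mTECs against WT cTECs, with 4 higher and 1 lower of 14, and 6 were lower in KO cTECs. Traf1, an adaptor induced by NF-kB, had 4.88 CPM in KO cTECs, against 75.1, 66.0, 42.4 and 56.5 CPM in WT cTECs (log2 fold change -3.62 ± 0.391, edgeR adjusted p = 0.000712). Tnfaip3 (A20), a feedback inhibitor, changed by -2.38 ± 0.357 (edgeR adjusted p = 0.0031), and Tank, which binds TRAF proteins, by -2.18 ± 0.308 (edgeR adjusted p = 0.00231). Of 10 kinases 1 was lower in KO cTECs, a share near the 12.4% of all genes. This was Map3k8 (TPL2), which had 4.76 CPM in KO cTECs, against 38.7, 44.3, 34.5 and 31.8 CPM in WT cTECs (log2 fold change -2.97 ± 0.337, edgeR adjusted p = 0.000874). Traf1 and Map3k8 were thus at 8.14% and 12.7% of the WT cTEC mean.

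Of 5 other NF-kB subunits and relatives, KO cTECs had Nfkb1 higher and Nfkbiz and Bcl3 lower, and WT mTECs had 3 lower than WT cTECs: Nfkbiz, Nfkb1 and Rela. Nfkb1 in WT mTECs was lower than in WT cTECs by 0.82 ± 0.185 log2 units (edgeR adjusted p = 0.0155) and Rela by 0.76 ± 0.183 (edgeR adjusted p = 0.0196). Of 15 NF-kB target genes 7 were higher and 2 lower in WT mTECs than in WT cTECs, and 9 were lower and none higher in KO cTECs, where 12.4% of all genes were lower. The target list shares 5 genes with the 6 mature mTEC markers, and 4 of the 9 lower targets (Aire, Fezf2, Cd80 and Spib) are such markers, so their fall repeats that of the marker list. Aire, the regulator of tissue antigen expression, had 0 counts in KO cTECs against 116, 46.0, 28.9 and 78.1 CPM in WT cTECs, at least 349-fold lower than the WT mean. Ccl21a, a chemokine of the medulla, is another lower target and also the immature or junctional mTEC marker called lower above. It changed by -8.93 ± 0.607 in KO cTECs (edgeR adjusted p = 0.000109). It was also lower in WT mTECs than in WT cTECs by 0.94 ± 0.272 log2 units (edgeR adjusted p = 0.0357).

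**Figure D4:**
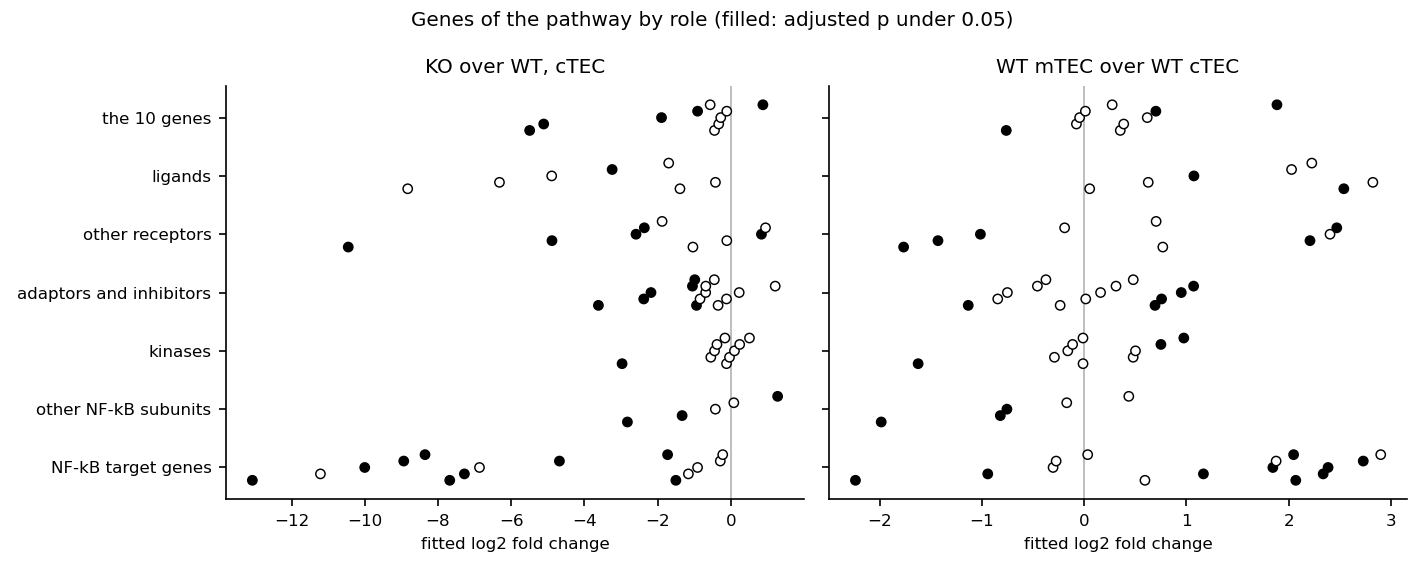
Fitted log2 fold changes (x axes) of the 10 genes and of 60 further genes of the pathway, by role (rows), for KO over WT in cTECs and for WT mTEC over WT cTEC. Each point is a gene, filled where the edgeR adjusted p was under 0.05; points of genes with 0 counts in the KO cTEC library, such as Aire, depend on the fit and are no bound. In KO cTECs 23 of the 60 further genes are lower and 2 higher, the 2 being Tnfrsf1a and Nfkb1.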

How the data were processed

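RNA came from frozen cell pellets and was amplified by a full-length protocol for low input before paired-end sequencing, per the labels' protocols. The deposited values are raw counts per Entrez gene, made by the authors with featureCounts on mm10 per the submitters' processing notes, beside the gene length deposited in bases. Not given in the sources used here are versions, aligner and annotation. A table of the whole series has 8 columns that match no sample label, so they stayed unused. Symbols were found for 25275 of 27179 identifiers (93%), and those without one held 0.887 to 1.68% of the counts and stayed in the fit.

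Genes with 1 CPM or more in 2 or more libraries (18163) were kept. After TMM scaling, edgeR 4.0.16 in R 4.3.3 fitted 1 mean per group over all 8 libraries (robust quasi-likelihood F test, 4 residual degrees of freedom). Tests were two-sided, p-values were adjusted by Benjamini-Hochberg over all genes tested, and a gene passed under 0.05. The SE is the absolute log2 fold change divided by the square root of F. The fit takes a single KO library to vary as WT libraries do. DESeq2 1.42.0, limma 3.58.1 (voom), RLE size factors, no filter, left-out libraries, fewer libraries and a replicate block were alternatives. Replicates of a group differed beyond counting noise in every pair. Beside the 10 genes and Mcl1, up to 3 called genes per direction and pathway list with the greatest fold change at an average log2 CPM of 3 or more, and the 5 genes most correlated with Tnfrsf11a, could be named. Tnfsf11 and Cd40lg were named after their values were seen. The genes and lists were chosen with earlier results of these data known. Reads carry no molecular identifiers and the kit does not mark strand.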

Additional observations from a re-analysis of the deposited data

Results flagged for a closer look

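The KO effect differed between mTECs and cTECs for 3 of the 10 genes by a test of the difference itself, the effect in mTECs minus that in cTECs in edgeR. For Tnfrsf11a the difference was 5.01 log2 units, with KO at 93.1% of the WT mean in mTECs and at 2.89% in cTECs. For Tnfrsf11b it was 5.09 log2 units, with KO at 75.6% of the WT mean in mTECs and at 2.21% in cTECs. For Ltbr it was -1.27 log2 units, with KO at 76.3% of the WT mean in mTECs and at 184% in cTECs. Mcl1 itself differed in the same test, by 3.96 ± 0.503 log2 units (edgeR adjusted p = 0.00277), with more of its RNA left in KO mTECs. The KO mTEC library kept Mcl1 at 49.8% of the WT mean. In Dixon's test on the 4 WT cTEC libraries, which divides the gap of the farthest library by the group's range, no gene passed the 95% critical value. Cd40 came to 0.738, with 87.6 CPM in WT cTEC 1 and 38.8 to 51.6 CPM in the other 3, and without WT cTEC 1 its difference of KO effects passed (edgeR adjusted p = 0.0249, against 0.122 with all libraries).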

How the results depend on the processing

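With 1 KO library per population, no KO library was left out, and the KO effects rest on the spread of the WT libraries. For the 3 genes called between WT populations, 32 of 39 alternative fits kept the call, for the 5 called in KO cTECs 55 of 60, and for the 3 differences of KO effects 29 of 33. No called value changed sign.

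In WT mTECs against WT cTECs 4912 genes were called, 603 to 6762 when 1 WT library was left out and 1676 with the replicate block. Of the 10 genes 3 were called, 0 to 4 with 1 library left out and 1, Cd40, with the replicate block (Tnfrsf11a adjusted p = 0.0689, Ltbr adjusted p = 0.0593). No label says that a replicate number marks a shared animal, so the numbers were taken as names only, and KO libraries carry no number. Same-numbered WT libraries deviated from their group means with correlations of -0.146 and -0.0194. Deviations of the 2 WT mTEC libraries mirror each other, so these values cannot decide whether animals were shared. The log2 fold changes of 3 uncalled genes crossed 0: Map3k14 was -0.0536 to 0.0735 with 1 library left out, -0.00971 with WT cTEC 1 alone as the cTEC group and -0.0632 with the replicate block; Traf3 was -0.144 to 0.000547 with 1 library left out; Traf6 was -0.0965 to 0.0171 with 1 library left out, 0.0216 with RLE size factors, 0.0213 with DESeq2, 0.054 with WT cTEC 1 alone and 0.0948 with the replicate block. With WT cTEC 1 alone Tnfrsf11b also passed (adjusted p = 0.00938).

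In KO cTECs 3179 genes were called, 1726 with limma-voom and 6078 with WT cTEC 1 alone, where Relb also passed (adjusted p = 0.0138). In KO mTECs 0 genes were called, against 141 with DESeq2, 734 with WT cTEC 1 alone, 708 with mTEC libraries only and 0 to 7 with 1 library left out, and none of the 10 passed in any. There Cd40 was 0.00736 with RLE size factors, 0.00737 with DESeq2 and -0.193 to 0.171 with 1 library left out, and Nfkb2 was -0.149 to 0.0976 with 1 library left out. For the difference of KO effects 1236 genes were called, 2041 with DESeq2, 104 with limma-voom, 4110 with WT cTEC 1 alone and 649 to 1849 with 1 library left out. Of the 10 genes 6 were called with WT cTEC 1 alone, Cd40, Relb and Nfkb2 (adjusted p = 0.000129, 0.023 and 0.0165) beside the 3. The cause of these changes was not tested.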
